A study of Mus musculus with 12 samples.

Results

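Nuclear receptors were examined in mIMCD3 cells, an immortalized line from the inner medullary collecting duct of the mouse kidney that carries the early region of the virus SV40. The set holds 46 genes, chosen by name from the nuclear receptor superfamily, of 47642 genes in the deposited table, and all 46 were found in it. RNA was sequenced from wild-type (Wt) cells, from cells without Pkd1 (Pkd1-/-) and from cells without Pkd2 (Pkd2-/-), with 4 libraries of each genotype. Pkd1 and Pkd2 encode the membrane proteins polycystin-1 and polycystin-2, whose loss causes autosomal dominant polycystic kidney disease. The Pkd1-/- cells came from CRISPR editing that left deletions of chr17:24550055-24594963 and chr17:24550106-24594903 on the 2 alleles, and the Pkd2-/- cells came from TALEN editing that deleted chr5:104478281-104490878 (mouse genome GRCm38), which removes part of Pkd2. Each mutant was 1 clone, and all 3 genotypes shared the same immortalized background and received no ligand or other treatment named in the labels. According to the paper the culture medium contained fetal bovine serum, so the cells were not shown to be free of receptor ligands. The RNA of a genotype came from separate dishes of 1 line, harvested 4 days after the cells became fully confluent. P-values therefore measure the spread between dishes, and differences between a mutant and Wt cells cannot be told apart from differences between clones.

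Nuclear receptors are transcription factors that bind DNA through zinc fingers, most of them as pairs, and many carry a pocket for a small lipid-soluble ligand such as a steroid, retinoic acid, vitamin D, a fatty acid or a bile acid. Without ligand many sit on DNA with corepressors, and ligand exchanges these for coactivators. Others have no known natural ligand and act according to how much of the protein is made, among them the NR4A receptors, which are induced within minutes of a stimulus. In the collecting duct the mineralocorticoid receptor is the best known member, since it mediates the action of aldosterone on sodium uptake.

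The libraries held 25966273 to 28027792 normalized counts in total, each value being a gene's read count scaled by the size factor of its library and rounded. A single read was worth an estimated 0.8855 to 1.1275 normalized counts. Pkd1 itself lay at 682 to 883 normalized counts in Wt, 30 to 49 in Pkd1-/- and 1057 to 1492 in Pkd2-/- cells. The count of the whole Pkd2 gene, at 3438 to 4467 in Wt and 3855 to 4135 in Pkd2-/- cells, does not check the Pkd2-/- label, because the exons outside the deletion were still counted. Of 12 principal cell markers of the collecting duct, Aqp2, Aqp4 and Tfap2b were listed at 0 in all libraries and Avpr2 reached at most 1. Aqp3, Scnn1b and Elf5 were also low, with at most 6, 7 and 12 normalized counts in any library. Hoxb7, Scnn1a, Scnn1g, Hsd11b2 and Gata3 were present. The 7 general markers of kidney epithelium summed to between 67553 and 79200 per library. Markers of intercalated cells, thick ascending limb and endothelium summed to at most 9 in any library, those of fibroblasts to at most 99 and those of leukocytes to at most 73. Proximal tubule markers summed to 33 to 1222, with Slc34a1 at 0, Cubn at 2 to 8 and Lrp2 giving the greater part.

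More of the listed nuclear receptors were expressed in some genotype than in none. A gene was taken as expressed where its 4 libraries averaged 10 normalized counts or more. By this measure 26 of the 46 genes were expressed in Wt, 25 in Pkd1-/- and 23 in Pkd2-/- cells. Expression in all 3 genotypes was found for 20 genes, expression in only 1 or 2 genotypes for 10, and expression in no genotype for 16. The 20 shared genes were Nr3c1, Esrra, Thra, Rara, Rarg, Ppara, Ppard, Nr1d1, Nr1d2, Rora, Nr1h2, Rxra, Rxrb, Nr2c1, Nr2c2, Nr2f2, Nr2f6, Nr4a1, Nr4a2 and Nr6a1. Pgr, Esrrb, Thrb, Pparg, Rxrg, Nr2e1, Nr0b1 and Nr0b2 were listed at 0 in every library, which leaves room for at most 3 counts in each library at these depths by counting error alone. Esr2, Esrrg, Nr1i2, Hnf4a, Nr5a1 and Nr5a2 never exceeded 4 normalized counts in a library, and these 14 genes were too low to be tested. Nr1h3 and Nr1i3 were tested at means of 1.25 to 7.00, and no difference between genotypes passed the threshold for either.

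Per kilobase of exon, Rxrb stood highest in Wt cells with 885 normalized counts per kb, followed by Nr2f6 with 779, Nr4a1 with 556 and Nr1h2 with 524. Rxrb encodes an obligate partner of many other receptors, Nr2f6 an orphan receptor of the COUP-TF family, and Nr1h2 the oxysterol receptor LXR beta. The Wt libraries of Nr4a1 spread from 1256 to 2556 normalized counts, so its place next to Nr1h2 does not exceed the spread between replicates. Nr3c1, which encodes the glucocorticoid receptor, was the highest of the steroid receptors with 296 normalized counts per kb in Wt cells. In Pkd2-/- cells Nr4a1 took the highest place with 1390 normalized counts per kb on average, a mean raised by library 4. Over the other 3 libraries it was 908, beside 752 for Rxrb.

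**Figure D1:**
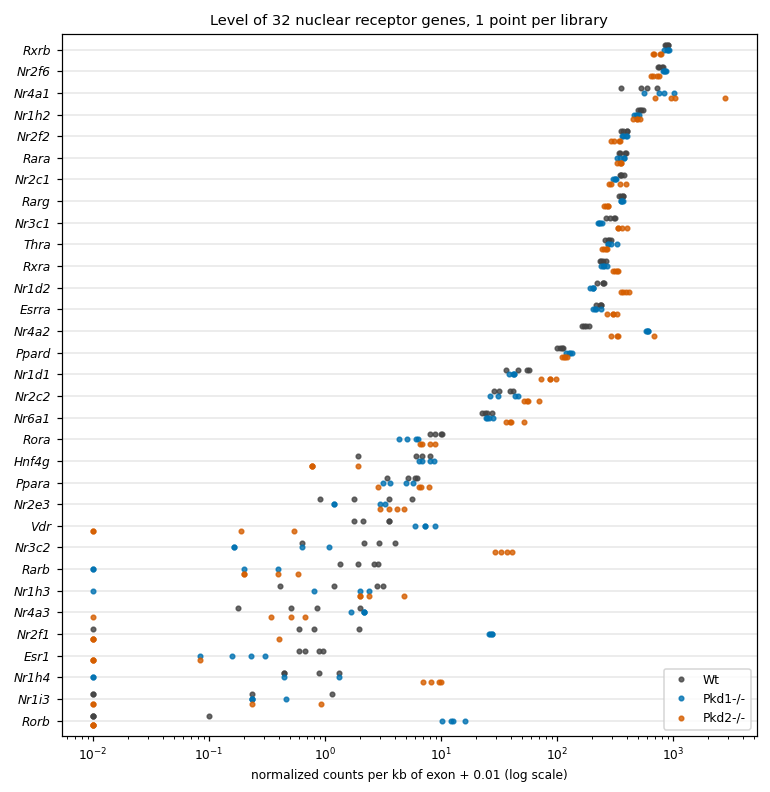
Level of the 32 tested nuclear receptor genes in normalized counts per kilobase of exon, with 0.01 added, on a log axis. Each point is 1 of the 4 libraries of Wt (grey), Pkd1-/- (blue) or Pkd2-/- (orange) cells and genes are ordered by their Wt mean. Points of the genotypes lie close together for most genes at the top, and apart for Rorb, Nr2f1, Nr3c2, Nr1h4 and Vdr lower down.

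Differences between genotypes were tested for the 32 of 46 genes that averaged 1 normalized count or more over all libraries, in a limma model fitted across all 18552 such genes. In Pkd1-/- against Wt cells, 11 nuclear receptors passed an adjusted p of 0.05, of all 18552 tested genes 27.1% did. Of these, 5 were higher in Pkd1-/- cells, beside 13.6% of all genes, and 6 were lower, beside 13.5%. In Pkd2-/- against Wt cells, 20 passed, beside 42.3% of all genes, with 11 higher, beside 20%, and 9 lower, beside 22.3%. Between the mutants, 22 passed, beside 46.3% of all genes, with 10 higher in Pkd2-/- cells, beside 21.9%, and 12 lower, beside 24.3%. With a log2 fold change of at least 1 also required, the counts were 7 in Pkd1-/- against Wt cells, beside 6.24% of all genes, 9 in Pkd2-/- against Wt cells, beside 9.62%, and 9 between the mutants, beside 11.8%. As shares of the 32 tested members these are 21.9%, 28.1% and 28.1%. The comparisons share samples, so they are given side by side and not as independent counts.

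As over all genes, large differences were more frequent among weakly expressed members. Of the 18 members that averaged 100 normalized counts or more, 1 passed both thresholds in Pkd1-/- against Wt cells and 2 did in Pkd2-/- against Wt cells, all of them NR4A genes, beside 2.84% and 5.68% of all genes at this level. Without Pkd2-/- library 4 the latter count was 0. Log2 fold changes of these 18 ran from -0.33 to 1.77 in Pkd1-/- and from -0.43 to 1.15 in Pkd2-/- cells. The other 14 tested members ran from -2.95 to 6.89 and from -3.25 to 4.00, and 6 and 7 of them passed both thresholds, beside 10.8% and 14.9% of all genes with means of 1 to 100. A weakly expressed gene enters the test through the genotype in which it is high, so these counts describe the members that could be tested. The median absolute log2 fold change over the 32 members was 0.26 in Pkd1-/- and 0.50 in Pkd2-/- against Wt cells, beside 0.21 and 0.30 over all genes tested.

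**Figure D2:**
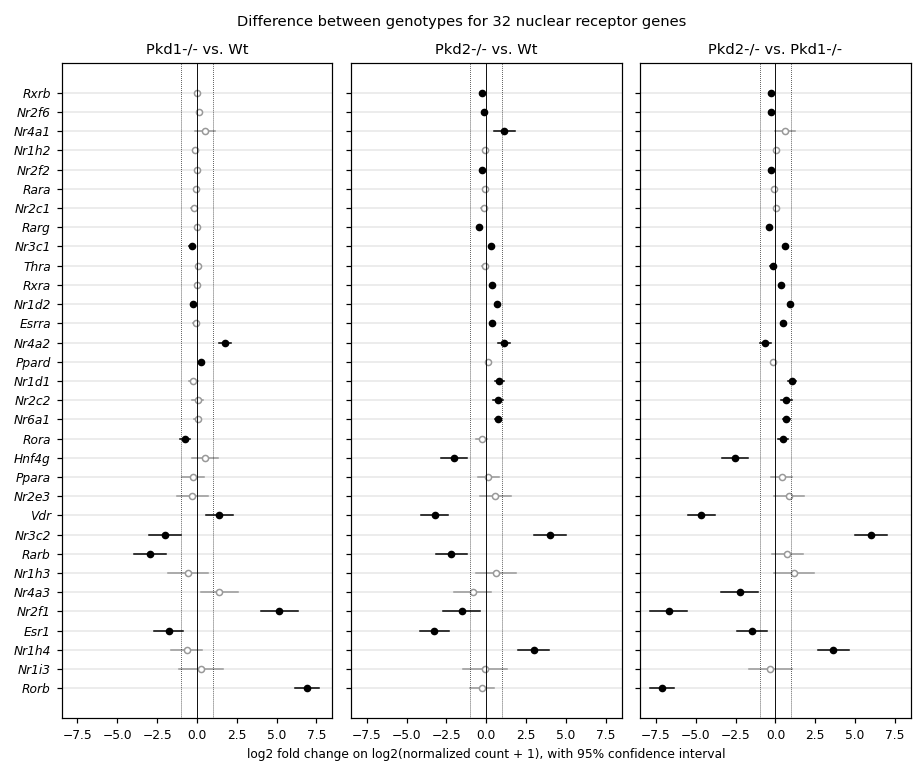
Log2 fold change of the 32 tested nuclear receptor genes in the 3 comparisons, on log2(normalized count + 1), with 95% confidence intervals from limma. Filled points passed an adjusted p of 0.05, dotted lines mark a log2 fold change of 1 in either direction, and genes are ordered by level as in the plot of levels. The widest departures are those of Rorb and Nr2f1, higher in Pkd1-/- cells, and of Nr3c2, higher in Pkd2-/- cells.

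Of the steroid receptors, the mineralocorticoid receptor gene Nr3c2 (chr8:76899442-77245012) rose in Pkd2-/- cells and fell in Pkd1-/- cells. Its normalized counts were 19, 14, 4 and 26 in Wt, 1, 4, 1 and 7 in Pkd1-/- and 241, 214, 190 and 265 in Pkd2-/- libraries. The Pkd2-/- libraries lay far above all others, whereas the Wt and Pkd1-/- libraries overlapped. In bulk RNA a change in the share of cells that express a gene cannot be told apart from a change in RNA per cell. The mean in Pkd2-/- cells was 14.4 times that in Wt cells, with a log2 fold change of 4.00 ± 0.47 (SE, limma adjusted p = 1.29e-06). In Pkd1-/- cells the log2 fold change was -2.0 ± 0.47 (limma adjusted p = 0.00335), while the exact permutation test gave p = 0.0857. The 48 genes within 5 Mb of Nr3c2 had a median of -0.04 on this scale in Pkd2-/- cells.

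Nr3c1 was the strongly expressed steroid receptor and differed little. It lay at 2409, 2055, 2198 and 2432 normalized counts in Wt, 1780, 1754, 1806 and 1879 in Pkd1-/- and 2582, 2816, 2573 and 3100 in Pkd2-/- libraries. The 3 genotypes did not overlap, with Pkd1-/- lowest and Pkd2-/- highest. The log2 fold change against Wt was -0.33 ± 0.06 in Pkd1-/- cells (limma adjusted p = 0.000659) and 0.28 ± 0.06 in Pkd2-/- cells (limma adjusted p = 0.00145).

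The estrogen receptor alpha gene Esr1 (chr10:4611593-5005614) was weak in Wt cells and fell further in both mutants. Its normalized counts were 8, 12, 9 and 13 in Wt, 3, 1, 2 and 4 in Pkd1-/- and 1, 0, 0 and 0 in Pkd2-/- libraries. No mutant library reached the lowest Wt library. The log2 fold change was -1.77 ± 0.44 in Pkd1-/- cells (limma adjusted p = 0.00449). In Pkd2-/- cells it was -3.25 ± 0.44 (limma adjusted p = 6.21e-06), and Wt cells held 42.0 times as many counts, with a 95% counting interval of 7.14 to 1700. The related orphan receptor Esrra, which acts on genes of energy metabolism, rose modestly in Pkd2-/- cells, from a mean of 1022 ± 43.4 (SD, n = 4) in Wt to 1326.2 ± 106 (SD, n = 4). Its log2 fold change of 0.37 ± 0.07 (limma adjusted p = 0.000125) stood beside a median of 0.25 over 211 genes within 5 Mb of it.

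Genes that supply steroid ligands or respond to them moved in several directions. Of 14 tested genes for steroid conversion and receptor chaperones, 5 rose and 2 fell in Pkd1-/- cells, and 4 rose and 5 fell in Pkd2-/- cells, or 50% and 64.3% of them. The shares over all genes tested, 27.1% and 42.3%, apply to every list that follows. They depend on level. Of all genes averaging 100 normalized counts or more, 37.0% and 59.3% passed, and of those averaging 1 to 100, 13.7% and 19.4%. Srd5a1, which converts testosterone to its more active form, fell from 1808 to 2123 normalized counts in Wt libraries to 1100 to 1281 in Pkd1-/- and 431 to 466 in Pkd2-/- libraries. Hsd11b2 inactivates glucocorticoids and so protects the mineralocorticoid receptor. It rose in Pkd1-/- cells (log2 fold change 0.55 ± 0.14, limma adjusted p = 0.00546) and fell in Pkd2-/- cells (-0.48 ± 0.14, limma adjusted p = 0.00777), the opposite of Nr3c2 in both. Stip1, a chaperone partner of unliganded steroid receptors, rose in both mutants by 0.47 and 0.30 on the log2 scale, and Hsd17b4 fell in Pkd2-/- cells with a log2 fold change of -0.37.

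Of 13 tested targets of glucocorticoid and mineralocorticoid receptors, 1 rose and 5 fell in Pkd1-/- cells, and 6 rose and 3 fell in Pkd2-/- cells, or 46.2% and 69.2% of them. The sodium channel subunit gene Scnn1g, a classical aldosterone target, fell in both mutants. It lay at 951, 988, 876 and 896 normalized counts in Wt, 282, 249, 333 and 347 in Pkd1-/- and 243, 257, 254 and 265 in Pkd2-/- libraries. Thus Scnn1g was low in the Pkd2-/- libraries in which Nr3c2 was high, as well as in the Pkd1-/- libraries in which Nr3c2 was low. Scnn1a, another subunit gene of this channel, went the other way in Pkd2-/- cells. It held 68 to 80 normalized counts in Wt, 63 to 91 in Pkd1-/- and 112 to 131 in Pkd2-/- libraries, a log2 fold change of 0.66 in the latter. Scnn1b held at most 7 in any library. A link between these genes and Nr3c2 was not tested. Nedd4l, a ubiquitin ligase that removes this channel from the membrane, fell in Pkd1-/- cells with a log2 fold change of -0.72 ± 0.06 (limma adjusted p = 1.12e-08), and it was at 0.06 in Pkd2-/- cells (limma adjusted p = 0.461). Klf9 fell in Pkd2-/- cells with a log2 fold change of -0.75, and Dusp1, which is also an immediate early gene, fell in Pkd1-/- cells with one of -0.83. Of 8 tested estrogen targets, 4 fell and 0 rose in Pkd1-/- cells, and 4 fell and 2 rose in Pkd2-/- cells, or 50% and 75% of them. Complement C3 fell in both, with log2 fold changes of -1.58 and -1.92. Gata3, a transcription factor of the collecting duct, fell in Pkd1-/- cells (-2.20) and rose in Pkd2-/- cells (0.64). Myb fell (-1.69) and the cyclin gene Ccnd1 rose (0.89) in Pkd2-/- cells.

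**Figure D3:**
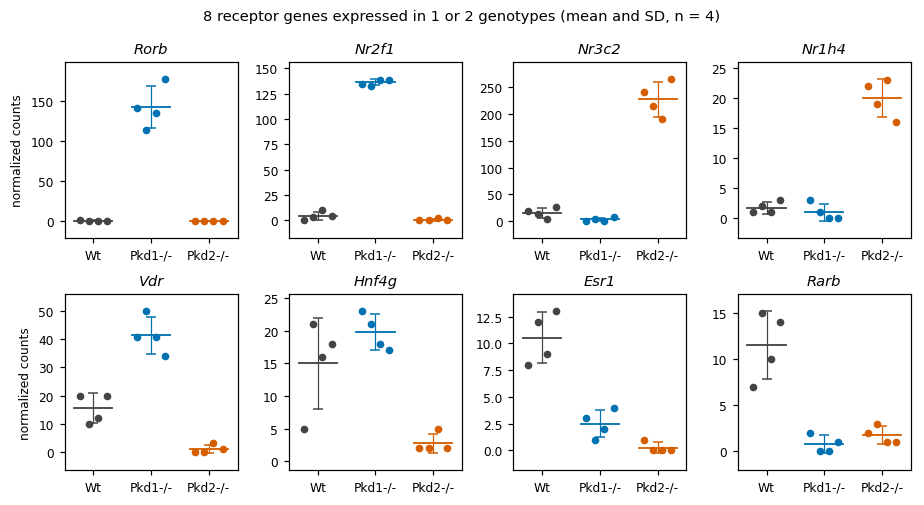
Normalized counts of 8 nuclear receptor genes that were expressed in 1 or 2 of the 3 genotypes, on linear axes from about 0. Points are the 4 libraries of each genotype, bars the mean and SD. Rorb and Nr2f1 stand out in Pkd1-/- cells, Nr3c2 and Nr1h4 in Pkd2-/- cells, and Esr1 and Rarb in Wt cells, while Vdr and Hnf4g are lowest in Pkd2-/- cells.

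Of the 3 retinoic acid receptors, the weak Rarb (chr14:16430839-16819156) fell in both mutants, the strongly expressed Rarg fell in Pkd2-/- cells and Rara passed in no comparison. Rarb held 7, 15, 10 and 14 normalized counts in Wt, 2, 0, 0 and 1 in Pkd1-/- and 2, 3, 1 and 1 in Pkd2-/- libraries. The Wt libraries lay above every mutant library. The log2 fold change was -2.95 ± 0.47 in Pkd1-/- cells (limma adjusted p = 8.63e-05) and -2.20 ± 0.47 in Pkd2-/- cells (limma adjusted p = 0.000824). Wt cells held 15.3 times the counts of Pkd1-/- cells, with a 95% counting interval of 4.93 to 77.1, and 6.57 times those of Pkd2-/- cells. Top2b on the opposite strand shares 34.1% of the exon bases of Rarb, and whether reads were counted by strand was not stated. The level of Top2b, at 2944 to 3633 normalized counts over all libraries, did not differ past the threshold in either mutant (log2 fold changes of -0.05 and -0.09).

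Rarb is itself a known target of retinoic acid through a repeated element in its promoter, as is Cyp26a1, which encodes an enzyme that degrades retinoic acid. The 250 bases before the RefSeq transcript starts of both genes (GRCm38.p6) are shown because each contains the repeat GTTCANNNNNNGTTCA, searched on both strands and found in 22 of 32851 promoter windows of this length, or 0.067%. For Rarb the window is chr14:16575477-16575726 on the minus strand, and for Cyp26a1 it is chr19:37697558-37697807 on the plus strand. Capitals mark the repeat, which in Cyp26a1 lies on the opposite strand and is therefore printed as its reverse complement.
Rarb: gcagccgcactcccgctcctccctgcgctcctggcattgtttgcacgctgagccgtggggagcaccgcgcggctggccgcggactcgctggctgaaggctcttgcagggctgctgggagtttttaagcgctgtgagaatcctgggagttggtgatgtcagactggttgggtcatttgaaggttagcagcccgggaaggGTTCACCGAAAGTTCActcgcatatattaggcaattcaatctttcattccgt
Cyp26a1: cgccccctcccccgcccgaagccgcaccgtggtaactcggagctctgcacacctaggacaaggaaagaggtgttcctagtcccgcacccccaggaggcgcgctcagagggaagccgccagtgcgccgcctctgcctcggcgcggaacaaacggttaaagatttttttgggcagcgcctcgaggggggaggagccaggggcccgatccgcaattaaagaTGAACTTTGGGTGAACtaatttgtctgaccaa
The repeat spans bases 52 to 37 before the start of Rarb and 32 to 17 before that of Cyp26a1. Cyp26a1, named here after its values were seen, held 34, 47, 44 and 31 normalized counts in Wt, 11, 3, 7 and 4 in Pkd1-/- and 10, 10, 12 and 19 in Pkd2-/- libraries. It fell in both mutants, with log2 fold changes of -2.57 ± 0.34 (limma adjusted p = 1.15e-05) and -1.57 ± 0.34 (limma adjusted p = 0.000999). The 21 genes with the repeat in this window included 5 that were expressed highly enough to be tested. The 2 that fell in Pkd1-/- cells were Rarb and Cyp26a1 themselves, which were also among the 4 that fell in Pkd2-/- cells. Of all genes tested, 13.5% fell in Pkd1-/- cells and 22.3% in Pkd2-/- cells. The other tested genes were Blvrb, Dmd and Tnfsf13b, chosen by the repeat alone. Dmd rose in Pkd1-/- cells (log2 fold change 1.48) and fell in Pkd2-/- cells (-5.19), Blvrb fell in Pkd2-/- cells (-0.67), and Tnfsf13b passed in neither. A match of letters does not show that a receptor bound there.

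Genes of retinoid supply and response fell more often than they rose in both mutants. Of 13 tested, 3 rose and 7 fell in Pkd1-/- cells, and 3 rose and 9 fell in Pkd2-/- cells, or 76.9% and 92.3% of them, with median log2 fold changes of -0.30 and -1.13 beside 0.01 and -0.01 over all genes. Aldh1a2, which makes retinoic acid from retinaldehyde, held 2003, 1964, 2053 and 1945 normalized counts in Wt, 153, 132, 115 and 151 in Pkd1-/- and 1266, 1370, 1326 and 1440 in Pkd2-/- libraries. Its fall was much deeper in Pkd1-/- cells (log2 fold change -3.85 ± 0.08) than in Pkd2-/- cells (-0.56 ± 0.08), and the mutants differed by 3.29 (limma adjusted p = 1.63e-16). Aldh1a1, which carries out the same step, rose in Pkd1-/- cells, where it held 152, 118, 150 and 129 normalized counts against 20, 17, 19 and 20 in Wt libraries. In Pkd2-/- cells it fell to 3, 3, 1 and 0. Rbp4, the retinol carrier, held 65 to 95 normalized counts in Wt libraries and at most 8 in any mutant library, with a log2 fold change of -4.73 ± 0.54 in each mutant. Cyp26b1, a relative of Cyp26a1, fell in both mutants (-2.67 and -2.42) from 3 to 19 normalized counts in Wt libraries.

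Rarg fell in Pkd2-/- cells from a mean of 1538.8 ± 64.9 (SD, n = 4) to 1144.2 ± 38.0 (SD, n = 4), with a log2 fold change of -0.43 ± 0.05 (limma adjusted p = 8.8e-07). In Pkd1-/- cells it was at 0.01, with a 95% confidence interval of -0.09 to 0.11. Rara did not pass the threshold in any comparison, and the interval of its difference was -0.15 to 0.10 in Pkd1-/- and -0.21 to 0.04 in Pkd2-/- cells. The partner receptors changed in Pkd2-/- cells in opposite directions. Rxra rose from 1354.2 ± 74.6 (SD, n = 4) to 1762.2 ± 84.3 (SD, n = 4) and Rxrb fell from 3515.8 ± 128 (SD, n = 4) to 2910.5 ± 236 (SD, n = 4). Their log2 fold changes were 0.38 ± 0.06 (limma adjusted p = 2.22e-05) and -0.28 ± 0.05 (limma adjusted p = 0.000444), and in Pkd1-/- cells they were 0.03 and 0.01. In Pkd2-/- cells the 166 genes within 5 Mb of Rxra on chromosome 2 had a median of 0.39, about that of Rxra, and its part in the result was not tested.

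The vitamin D receptor gene Vdr (chr15:97854425-97910630) moved in opposite directions in the mutants. It held 20, 10, 12 and 20 normalized counts in Wt, 41, 50, 41 and 34 in Pkd1-/- and 0, 0, 3 and 1 in Pkd2-/- libraries. None of the genotypes overlapped. In Pkd1-/- cells it rose 2.68-fold, with a log2 fold change of 1.41 ± 0.41 (limma adjusted p = 0.0152), which lost its call when Wt library 2 or Pkd1-/- library 2 was left out (adjusted p = 0.0515 and 0.0505). In Pkd2-/- cells it fell with a log2 fold change of -3.24 ± 0.41 (limma adjusted p = 3.46e-06), and Wt cells held 15.5 times its mean. Only 5 of 12 genes of vitamin D handling and response were expressed enough to be tested, of which 2 rose and 2 fell in Pkd1-/- cells, and 3 rose and 1 fell in Pkd2-/- cells, or 80% of them in each. Cyp27b1, which makes the active hormone, rose in both mutants from 1 to 3 normalized counts in Wt libraries to 7 to 13 in Pkd1-/- and 4 to 5 in Pkd2-/- libraries. Lrp2, the receptor that takes up the vitamin with its carrier, fell in Pkd1-/- cells (log2 fold change -3.50) and rose in Pkd2-/- cells (0.85). The secreted phosphoprotein Spp1 fell in both, with log2 fold changes of -1.92 and -1.91, and Cdkn1a rose in both (0.32 and 0.17).

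The bile acid receptor gene Nr1h4 (FXR, chr10:89454234-89533585) was expressed in Pkd2-/- cells alone. It held 1, 2, 1 and 3 normalized counts in Wt, 3, 1, 0 and 0 in Pkd1-/- and 22, 19, 23 and 16 in Pkd2-/- libraries. The Pkd2-/- mean was 11.4 times that of Wt cells, with a log2 fold change of 2.98 ± 0.47 (limma adjusted p = 3.68e-05). Nr0b2, its best known target and itself a receptor that represses others, was listed at 0 in all libraries. Of 14 targets of FXR and the xenobiotic receptors Nr1i2 and Nr1i3, 5 were tested, 2 fell and 0 rose in each mutant, or 40% of them. These were the transporter genes Abcc3, which fell from 431 to 538 normalized counts in Wt libraries to 4 to 14 in all mutant libraries, and Abcb1b. Nr1i2 was nearly absent, and Nr1i3 shares 74.9% of its exon bases with Tomm40l, so its 0 to 5 counts are uncertain.

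The oxysterol receptor gene Nr1h2 passed in no comparison. Its means were 1759 ± 74.6, 1619.2 ± 66.0 and 1640 ± 101 (SD, n = 4 each) in Wt, Pkd1-/- and Pkd2-/- cells, and the confidence intervals of its log2 fold changes reached at most 0.23 in size. Of 8 tested LXR targets, 4 rose and 1 fell in Pkd1-/- cells, and 6 rose and 2 fell in Pkd2-/- cells, or 62.5% and 100% of them. Scd1, an enzyme that makes unsaturated fatty acids, fell in both mutants (log2 fold changes -0.88 and -1.35) and its paralog Scd2 rose in both (0.58 and 0.66). Mylip, which directs the LDL receptor to degradation, rose in Pkd2-/- cells (1.03), and the lipid transfer protein gene Pltp rose in both (0.47 and 0.89).

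Of the fatty acid receptors, Ppard was the most strongly expressed, Ppara was weak and Pparg was listed at 0. Ppard held 794, 828, 757 and 849 normalized counts in Wt, 900, 983, 1010 and 960 in Pkd1-/- and 877, 868, 828 and 918 in Pkd2-/- libraries. The Pkd1-/- libraries lay above the Wt libraries, with a log2 fold change of 0.26 ± 0.06 (limma adjusted p = 0.00269), and the Pkd2-/- libraries overlapped them (0.11 ± 0.06, limma adjusted p = 0.135). Ppara, at means of 16.8 to 23.0, passed in no comparison, with confidence intervals as wide as -0.91 to 0.42. Of 14 tested PPAR targets, 10 fell and 0 rose in Pkd2-/- cells, while 1 rose and 3 fell in Pkd1-/- cells. The shares called were 71.4%, beside 42.3% of all genes, and 28.6%, beside 27.1%. Most of these targets averaged 100 normalized counts or more, where 59.3% and 37.0% of all genes passed. Angptl4, a secreted inhibitor of lipoprotein lipase, held 88, 152, 106 and 106 normalized counts in Wt, 122, 132, 124 and 112 in Pkd1-/- and 3, 1, 7 and 3 in Pkd2-/- libraries. Its log2 fold change in Pkd2-/- cells was -4.80 ± 0.30 (limma adjusted p = 2.63e-10). Pdk4 (-1.22), the lipid droplet gene Plin2 (-0.70) and the carnitine transferase gene Cpt1a (-0.12) also fell there, and Cpt1a rose in Pkd1-/- cells (0.54). The median over the 14 targets was -0.37 in Pkd2-/- and -0.03 in Pkd1-/- cells.

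Hnf4g, a weak relative of the hepatocyte nuclear factor Hnf4a, fell in Pkd2-/- cells. It held 5, 21, 16 and 18 normalized counts in Wt, 23, 21, 18 and 17 in Pkd1-/- and 2, 2, 5 and 2 in Pkd2-/- libraries. A single Wt library lay as low as the highest Pkd2-/- library. The log2 fold change was -2.01 ± 0.40 against Wt cells (limma adjusted p = 0.000384, exact permutation p = 0.0571).

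Thra, the thyroid hormone receptor of these cells, had means of 1283.5 ± 57.9, 1359 ± 125 and 1193.5 ± 52.3 (SD, n = 4 each) in Wt, Pkd1-/- and Pkd2-/- cells. Neither mutant differed from Wt cells past the threshold, and the mutants differed from each other by -0.18 ± 0.06 on the log2 scale (limma adjusted p = 0.0225). That call was lost without Pkd1-/- library 3 or Pkd2-/- library 2 (adjusted p = 0.107 and 0.0771). Of 7 tested genes of thyroid hormone handling and response, 1 rose and 2 fell in each mutant, a called share of 42.9% beside 27.1% of all genes in Pkd1-/- and 42.3% in Pkd2-/- cells. The deiodinase gene Dio1, which activates the hormone, rose in Pkd2-/- cells to 32, 23, 32 and 30 normalized counts from 4, 5, 5 and 10 in Wt libraries. Hr, a corepressor of the receptor, fell there from 98 to 110 to between 23 and 45, while Slc16a10, a transporter of the hormone, and Bcl3 fell in Pkd1-/- cells (log2 fold changes -2.92 and -1.28).

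Of the receptors of the circadian clock, Nr1d1 and Nr1d2 rose in Pkd2-/- cells. They encode the repressors REV-ERB alpha and beta, and Rora encodes an activator that competes with them for the same element. Nr1d1 (chr11:98767932-98775333) held 113, 176, 170 and 143 normalized counts in Wt, 129, 130, 119 and 130 in Pkd1-/- and 269, 224, 266 and 301 in Pkd2-/- libraries. Nr1d2 (chr14:18204054-18239127) held 1351, 1209, 1368 and 1360 in Wt, 1097, 1111, 1054 and 1112 in Pkd1-/- and 1916, 2128, 2006 and 2244 in Pkd2-/- libraries. For both genes the Pkd2-/- libraries lay above all others. The log2 fold changes in Pkd2-/- cells were 0.83 ± 0.13 for Nr1d1 (limma adjusted p = 4.52e-05) and 0.65 ± 0.06 for Nr1d2 (limma adjusted p = 3.18e-08). In Pkd1-/- cells Nr1d2 fell slightly (-0.27 ± 0.06, limma adjusted p = 0.00138) and Nr1d1 was at -0.22 ± 0.13 (limma adjusted p = 0.24), which passed without Wt library 1 (adjusted p = 0.0366). Nr1d1 and Thra share 263 exon bases on opposite strands, which is 8.5% of the exon length of Nr1d1, and Thra did not rise.

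Rora fell in Pkd1-/- cells. It held 130, 106, 117 and 132 normalized counts in Wt, 57, 67, 82 and 79 in Pkd1-/- and 89, 105, 86 and 116 in Pkd2-/- libraries, a log2 fold change of -0.77 ± 0.15 in Pkd1-/- cells (limma adjusted p = 0.000599). Its value in Pkd2-/- cells was -0.29 ± 0.15 (limma adjusted p = 0.124). Of 15 tested core clock genes other than these receptors, 7 rose and 2 fell in Pkd1-/- cells, and 9 rose and 3 fell in Pkd2-/- cells, or 60% and 80% of them. Ciart, a clock repressor, held 308, 311, 329 and 350 normalized counts in Wt, 382, 368, 381 and 421 in Pkd1-/- and 746, 660, 683 and 723 in Pkd2-/- libraries. It rose in both mutants (0.26 and 1.11), as did the cryptochrome gene Cry2 (0.40 and 1.11). The repressor gene Bhlhe41 fell in Pkd1-/- cells (-1.22) and rose in Pkd2-/- cells (0.62). Nfil3, a target of the REV-ERB repressors, rose in Pkd1-/- cells with a log2 fold change of 0.62 ± 0.13 (limma adjusted p = 0.000926). In Pkd2-/- cells, where Nr1d1 and Nr1d2 rose, Nfil3 held 241 to 404 normalized counts, beside 236 to 263 in Wt libraries. A link between Nfil3 and these receptors was not tested.

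**Figure D4:**
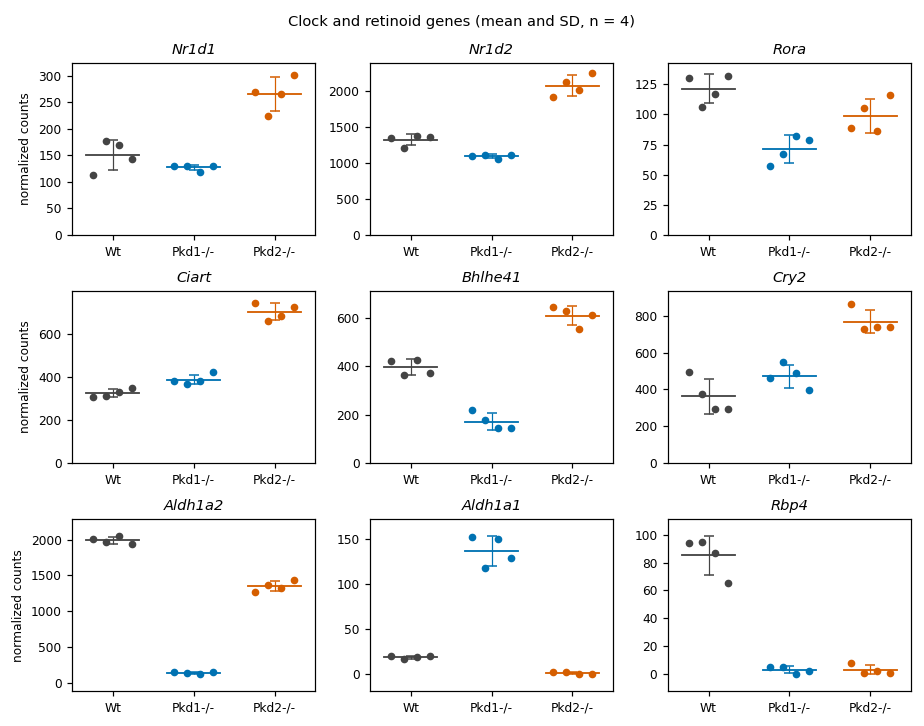
Normalized counts of 3 clock receptors, 3 other clock genes and 3 retinoid genes on linear axes. Points are the 4 libraries of each genotype, bars the mean and SD. Nr1d1, Nr1d2, Ciart, Bhlhe41 and Cry2 are highest in Pkd2-/- cells, Rora and Aldh1a2 are lowest in Pkd1-/- cells, where Aldh1a1 is highest, and Rbp4 is near 0 in both mutants.

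Rorb (chr19:18930605-19111196), a relative of Rora known from retina and brain, was expressed in Pkd1-/- cells alone. It held 1, 0, 0 and 0 normalized counts in Wt, 141, 114, 135 and 177 in Pkd1-/- and 0 in all 4 Pkd2-/- libraries. Pkd1-/- cells held 567 times the counts of Wt cells, with a 95% counting interval of 101 to 22400 because Wt cells held 1 count, and at least 189-fold more than Pkd2-/- cells, computed against 3 counts over the group. The limma adjusted p was 4.32e-11 against Wt and 7.7e-12 between the mutants. The 30 genes within 5 Mb of it had a median of 0.18 on the log2 scale in Pkd1-/- cells.

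The COUP-TF family gave the other receptor of this kind. Nr2f1 (chr13:78188973-78199757), an orphan receptor of neural and vascular development, held 0, 3, 10 and 4 normalized counts in Wt, 135, 133, 139 and 139 in Pkd1-/- and 0, 0, 2 and 0 in Pkd2-/- libraries. The Pkd1-/- libraries were nearly equal and far above all others. Its mean there was 32.1 times that in Wt cells, with a log2 fold change of 5.16 ± 0.55 (limma adjusted p = 7.8e-07). Pkd1-/- cells held 273 times the counts of Pkd2-/- cells, with a 95% counting interval of 75.2 to 2260. Its lower value in Pkd2-/- than in Wt cells (-1.55 ± 0.55, limma adjusted p = 0.0302, exact permutation p = 0.143) lost its call without Wt library 2, 3 or 4 or Pkd2-/- library 1, 2 or 4, with an adjusted p of 0.13 without Wt library 3. The antisense gene A830082K12Rik, which shares 2.4% of the exon bases of Nr2f1, held 3 to 4 normalized counts in Wt, 86 to 121 in Pkd1-/- and 0 to 4 in Pkd2-/- libraries. Its close relative Nr2f2 was about as high in Pkd1-/- as in Wt cells, with means of 3313.2 ± 163 and 3301 ± 195 (SD, n = 4 each), and fell slightly in Pkd2-/- cells (-0.24 ± 0.06, limma adjusted p = 0.00286). Nr2f6 was slightly lower in Pkd2-/- cells (-0.15 ± 0.05, limma adjusted p = 0.0273), a call lost without Wt library 2 or 3 or Pkd2-/- library 2 or 4 (adjusted p = 0.0692 to 0.107). It shares 54.4% of its exon bases with Ocel1, which also fell there (-0.30).

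Of the testicular receptors, Nr2c1 had log2 fold changes of -0.20 ± 0.08 (limma adjusted p = 0.0692) and -0.15 ± 0.08 (limma adjusted p = 0.142). Without Pkd2-/- library 4 both passed (adjusted p = 0.0153 and 0.00518), and the former also did without library 3 of these cells (0.0379) or with Wt and Pkd1-/- libraries alone (0.00504). Nr2c2 rose in Pkd2-/- cells, from a mean of 528 ± 89.1 (SD, n = 4) in Wt to 872 ± 122 (SD, n = 4). The log2 fold change was 0.73 ± 0.15 (limma adjusted p = 0.000779), while Mrps25, with which Nr2c2 shares 30.7% of its exon bases, fell (-0.51). Nr6a1, the germ cell nuclear factor, rose in the same cells from 269 ± 24.1 to 454 ± 71.3 (SD, n = 4 each), with a log2 fold change of 0.74 ± 0.10 (limma adjusted p = 7.28e-06). The 41 genes within 5 Mb of Nr6a1 on chromosome 2 had a median of 0.38, and their part in the result was not tested. Nr2e3 was at means of 7.25 to 13.0 and passed in no comparison.

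The NR4A orphan receptors, early responders to growth factors, calcium and cyclic AMP, were the strongly expressed members with the largest differences. Nr4a2 (chr2:57106830-57124003) rose in both mutants. It held 772, 667, 697 and 723 normalized counts in Wt, 2418, 2489, 2473 and 2378 in Pkd1-/- and 1179, 1373, 1330 and 2788 in Pkd2-/- libraries. All mutant libraries lay above all Wt libraries. The log2 fold change was 1.77 ± 0.17 in Pkd1-/- cells (limma adjusted p = 1.99e-07) and 1.13 ± 0.17 in Pkd2-/- cells (limma adjusted p = 2.46e-05), the latter falling to 0.85 without Pkd2-/- library 4 (adjusted p = 2.12e-09). The median log2 fold change of 29 genes within 5 Mb of it was 0.18 in Pkd1-/- and 0.37 in Pkd2-/- cells.

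Nr4a1 (chr15:101254269-101274795) held 1256, 1881, 2106 and 2556 normalized counts in Wt, 1982, 2662, 2935 and 3589 in Pkd1-/- and 2481, 3407, 3673 and 9927 in Pkd2-/- libraries. The genotypes overlapped, and library 4 was highest and library 1 lowest in each of them. Nr4a1 rose in Pkd2-/- cells with a log2 fold change of 1.15 ± 0.30 (limma adjusted p = 0.00439, exact permutation p = 0.0571), and by 0.74 without library 4 of these cells (adjusted p = 0.00504). In Pkd1-/- cells its log2 fold change of 0.53 ± 0.30 did not pass (limma adjusted p = 0.219). It passed at the same fold change when Pkd2-/- library 4 was left out of the model (adjusted p = 0.0333). It also passed with Wt and Pkd1-/- libraries alone (0.0277) or with the library number as a replicate block (0.00636). Nr4a3 was weak, with 1, 5, 3 and 12 normalized counts in Wt, 10, 13, 13 and 13 in Pkd1-/- and 0, 2, 4 and 3 in Pkd2-/- libraries. It differed between the mutants (-2.24 ± 0.55, limma adjusted p = 0.00226), and its difference of 1.40 ± 0.55 between Pkd1-/- and Wt cells did not pass (limma adjusted p = 0.0678), but did without Wt library 4 (1.86, adjusted p = 0.0161) or Pkd2-/- library 1 (adjusted p = 0.0361), at a pseudocount of 5 (0.0247), with voom weights (0.0397) and with these 2 genotypes alone (0.0374).

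Promoters of NR4A genes are known to respond to cyclic AMP. The 250 bases before the RefSeq starts of Nr4a1 (chr15:101266596-101266845, plus strand) and Nr4a2 (chr2:57124004-57124253, minus strand) are shown with capitals marking the short cyclic AMP element TGACG or its reverse complement, searched on both strands (GRCm38.p6). Each holds 4 matches, as does the window of Nr4a3, and 4 or more were found in 45 of 32851 windows, or 0.137%.
Nr4a1: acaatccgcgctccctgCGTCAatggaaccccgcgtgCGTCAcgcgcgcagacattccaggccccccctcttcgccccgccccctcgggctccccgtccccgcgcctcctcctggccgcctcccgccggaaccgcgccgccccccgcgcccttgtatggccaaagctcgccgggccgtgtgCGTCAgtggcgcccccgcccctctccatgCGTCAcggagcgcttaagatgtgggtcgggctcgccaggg
Nr4a2: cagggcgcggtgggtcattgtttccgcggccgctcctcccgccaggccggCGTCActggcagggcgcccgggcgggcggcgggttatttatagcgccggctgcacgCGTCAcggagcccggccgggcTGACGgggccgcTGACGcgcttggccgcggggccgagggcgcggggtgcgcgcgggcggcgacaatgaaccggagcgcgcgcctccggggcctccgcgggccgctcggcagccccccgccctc
At least 1 match was present in 17.8% of all windows. The palindrome TGACGTCA, which contains the short element on both strands, was found in 1.55% of windows and in none of these 3.

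Other immediate early genes rose in Pkd2-/- cells but not in Pkd1-/- cells to the same extent. Of 13 tested, 10 rose and 0 fell in Pkd2-/- cells, and 1 rose and 2 fell in Pkd1-/- cells, or 76.9% and 23.1% of them, with medians of 1.29 and -0.05. Between the mutants 11 were higher and 1 lower in Pkd2-/- cells, or 92.3% of them. Of all genes 46.3% passed in that comparison, and 63.2% of those averaging 100 normalized counts or more. Fosb held 128, 345, 293 and 631 normalized counts in Wt, 158, 227, 286 and 458 in Pkd1-/- and 940, 1656, 1019 and 3198 in Pkd2-/- libraries. Egr2, Atf3 and Fos rose there as well, with log2 fold changes of 1.94, 1.69 and 1.49. Library 4 of the Pkd2-/- cells was highest for 11 of the 13 genes and library 1 lowest for 11. The same numbers recurred in the other genotypes, with library 1 lowest for 10 and library 4 highest for 7 in Wt cells, and for 11 and 8 in Pkd1-/- cells. Nr4a2 in Pkd1-/- cells varied little, since its 4 libraries there lay between 2378 and 2489.

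**Figure D5:**
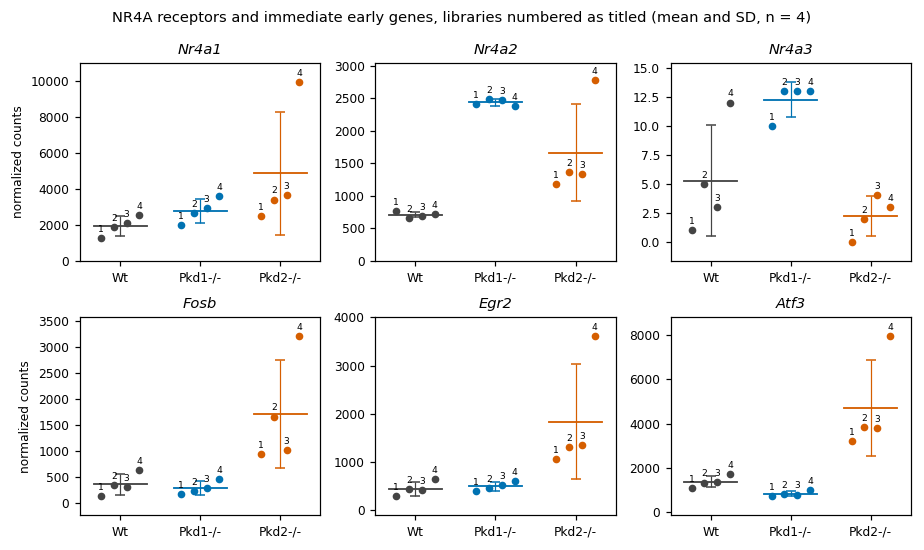
Normalized counts of the 3 NR4A genes and of 3 immediate early genes on linear axes, with the library number of the sample titles above each point. Bars are the mean and SD. Library 4 of the Pkd2-/- cells stands apart for Nr4a1, Nr4a2, Fosb, Egr2 and Atf3, and the Pkd1-/- libraries of Nr4a2 lie close together at 2378 to 2489.

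The coregulators through which nuclear receptors act were all expressed enough to be tested. Of 19, 2 rose and 3 fell in Pkd1-/- cells, and 11 rose and 2 fell in Pkd2-/- cells, with median log2 fold changes of 0.06 and 0.27. These were 26.3% of them, beside 27.1% of all genes, and 68.4%, beside 42.3%. All but Ppargc1b averaged 100 normalized counts or more, and of all genes at that level 37.0% and 59.3% passed. The corepressor gene Lcor held 297, 228, 402 and 338 normalized counts in Wt, 265, 433, 315 and 432 in Pkd1-/- and 814, 783, 789 and 1085 in Pkd2-/- libraries. Its log2 fold change in Pkd2-/- cells was 1.47 ± 0.17 (limma adjusted p = 8.02e-07). The coactivator genes Ppargc1b (1.23), Ncoa6 (0.66) and Ncoa3 (0.58) rose there too, and of the 4 only Ncoa6 passed in Pkd1-/- cells (0.28).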

How the data were processed

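RNA-seq of 12 mIMCD3 libraries, 4 per genotype, was analysed from the deposited gene table. The authors trimmed reads with Trim Galore, aligned them with HISAT2 to mm10 (GRCm38), counted them per gene with htseq-count and normalized them with DESeq2. Each deposited value is a score, namely a normalized count that the authors rounded to a whole number, so no model of raw read counts was fitted. All 12 sample columns were used. Symbols, positions and exon lengths came from GENCODE M21, which held 47223 of 47642 identifiers. What 1 read is worth (0.8855 to 1.1275 normalized counts) was estimated from the steps of low values in each library. Intervals cover counting error only and treat normalized counts as counts.

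Genotypes were compared with limma 3.58.1 in R 4.3.3 (lmFit and eBayes with a variance trend) on log2(value + 1), with 18552 genes averaging 1 or more and the 12 libraries sharing 1 model, two-sided, with Benjamini-Hochberg adjustment within each comparison. The code was tested on simulated data. Fold changes on this scale understate those of low genes. Exact permutation tests of 4 against 4 libraries were two-sided and cannot go below p = 0.0286. Promoter windows came from RefSeq with those of chromosome 18 left out, and covered 42 members. Nr3c1, which lies on chromosome 18, therefore had no window, and shares of windows leave out this chromosome. Named genes were the members, Pkd1 and Pkd2, the collecting duct markers, and at most 4 genes per pathway list with the largest fold change against Wt among those past the threshold averaging 10 or more in a genotype, apart from Cyp26a1 and genes overlapping a member. The members and lists were chosen with earlier results of these data known. Library numbers in the titles were not taken as pairs. Over genes averaging 10 or more, libraries with the same number correlated between -0.073 and 0.2 in their deviations from the genotype means. For most immediate early genes, however, the same numbers recurred as lowest or highest across genotypes. Alternatives were pseudocounts of 0.5 and 5, no filter and a minimum mean of 10, a replicate block, upper quartile rescaling, no variance trend, voom weights, models of 2 genotypes and leaving out each library.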

Additional observations from a re-analysis of the deposited data

Results flagged for a closer look

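In 74 groups of 4 libraries that averaged 10 normalized counts or more, 6 held a library far from the others of its genotype by Dixon's criterion, where chance gives about 1 in 20. In Pkd2-/- library 4, Nr4a1 was at 9927 normalized counts, the other libraries of the genotype being at 2481 to 3673. Nr4a2 was at 2788 in the same library, beside 1179 to 1373. The remaining 4 were values slightly below their group. Esrra was at 957 in Wt library 1, Nr1d2 at 1209 in Wt library 2, Nr1d1 at 119 in Pkd1-/- library 3 and Nr4a3 at 10 in Pkd1-/- library 1.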

How the results depend on the processing

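Counts of nuclear receptors that passed stayed within 1.5 times under every alternative run. Leaving out each library gave 10 to 13 of 11 in Pkd1-/- against Wt cells, 18 to 20 of 20 in Pkd2-/- against Wt cells and 21 to 23 of 22 between the mutants, and with the fold change threshold 6 to 8 of 7, 6 to 9 of 9 and 8 to 9 of 9. No called member changed direction. With the library number as a replicate block, 14, 20 and 24 passed, with calls gained for Nr4a1, Nr4a3 and Nr2c1 in Pkd1-/- against Wt cells (adjusted p = 0.00636, 0.0273 and 0.0416) and for Nr4a1 and Nr1h3 between the mutants (0.00101 and 0.0383). Ppard gained one between the mutants at a minimum mean of 10 (0.044), with upper quartile rescaling (0.0121), and without Pkd1-/- library 1 or Pkd2-/- library 4 (0.0273 and 0.0373). So did Nr4a1 without Pkd2-/- library 1 (0.0217), and Nr1d1 in Pkd1-/- against Wt cells without Wt library 1 (0.0366). Over genes averaging 10 or more, 3 of 12 libraries correlated best with a library of their own number. Among 13 immediate early genes, however, library 1 was lowest for 10, 11 and 11 in Wt, Pkd1-/- and Pkd2-/- cells. What the numbers stand for was not stated, and calls gained with the block, such as those of Nr4a1, depend on this choice. Vdr in Pkd1-/- against Wt cells lost its call at a pseudocount of 0.5 (adjusted p = 0.0504), Nr2f6 in Pkd2-/- cells without the variance trend or with 2 genotypes alone (0.057 and 0.0524), and Nr2f1 in Pkd2-/- cells in 4 settings (up to 0.0949). Rora lost its call between the mutants without Pkd1-/- library 1 or Pkd2-/- library 4 (0.0516 and 0.0514). The cause was not tested. A minimum mean of 20 gave 20, 22 and 22 expressed receptors in Wt, Pkd1-/- and Pkd2-/- cells. Genes under about 10 normalized counts are limited by depth, and wide intervals there do not show equal levels.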
